A study of Mus musculus with 6 samples.

Results

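The 4 pluripotent mouse lines iPSC 1, iPSC 2, gPSC 1 and gPSC 2, were compared at the cytosine positions that the authors had called as differentially methylated in every one of them. Positions were chosen by their listing, that is by the size and q-value of their difference from the reference in each line: a position entered when it stood in the higher-methylation or lower-methylation table of all 4 lines, which left 38872 of the 448072 positions listed in any of the 5 libraries with tables. The value of a position in a line is the authors' methylation difference from a reference library, in percentage points (called points here), and the reference cancels when the mean of the gPSC lines is subtracted from the mean of the iPSC lines. A negative iPSC minus gPSC difference therefore means less methylation in the iPSC lines, whichever library the reference was.

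The study profiled cultured cells of the OG2 mouse strain, which carries a fluorescent reporter driven by Pou5f1 (Oct4) regulatory sequence, by reduced representation bisulfite sequencing, a method that reads CpG-rich restriction fragments. The iPSC lines were induced pluripotent cells made from germline stem cells (GSC). The gPSC lines were pluripotent cells derived from the germline. Each kind had 2 independent lines per the series design, with 1 library per line, and the series also held 1 GSC and 1 embryonic stem cell (ESC) library. The tables name no reference; the ESC library, which alone has no table of its own, was assumed to be it. All lines shared the strain, and no treatment, passage number or sex is given in the labels. Per-position coverage is not in the tables, so the depth behind a value is unknown and no counting interval can be given.

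CpG methylation is copied at replication by Dnmt1 with Uhrf1, is set anew by Dnmt3a and Dnmt3b, and is lost through failure to copy or through oxidation by Tet enzymes. Germ cells and pluripotent cells differ in which promoters, imprinted regions and gene bodies carry it. In pluripotent lines the overall level is also known to drift with culture conditions and passage.

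The promoter windows of 4 genes from RefSeq (GRCm38.p6, 250 bases before to 50 after a start, printed 5′ to 3′ on the strand of the gene) show what the shared positions look like. Of 278 named or listed genes looked up, 201 had a promoter sequence and 17 of these held a shared position inside such a window. Capitals mark each CpG that holds a shared position, and the single capital C at the end of the last sequence marks a shared position whose CpG could not be read within the window. Nampt (chr12:32820085-32820384, plus strand) is shown because its 4 shared CpGs had a large difference between the kinds, Dazl (chr17:50293571-50293870, minus strand) and Mael (chr1:166238695-166238994, minus strand) as germ cell genes, and Hnrnpu (chr1:178337766-178338065, minus strand) because its shared positions lie next to each other with opposite signs.
Nampt promoter: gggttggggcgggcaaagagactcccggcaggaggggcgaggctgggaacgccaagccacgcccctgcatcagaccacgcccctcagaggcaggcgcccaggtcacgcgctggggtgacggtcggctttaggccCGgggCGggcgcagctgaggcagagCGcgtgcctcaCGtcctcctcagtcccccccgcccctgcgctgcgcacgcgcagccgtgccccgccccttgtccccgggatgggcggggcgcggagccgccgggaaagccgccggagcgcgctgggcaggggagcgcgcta
Dazl promoter: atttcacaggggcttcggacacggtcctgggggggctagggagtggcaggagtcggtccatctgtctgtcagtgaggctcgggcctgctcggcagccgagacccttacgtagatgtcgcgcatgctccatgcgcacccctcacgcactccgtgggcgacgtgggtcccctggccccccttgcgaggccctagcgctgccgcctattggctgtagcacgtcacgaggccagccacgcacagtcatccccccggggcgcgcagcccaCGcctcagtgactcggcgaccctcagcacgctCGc
Mael promoter: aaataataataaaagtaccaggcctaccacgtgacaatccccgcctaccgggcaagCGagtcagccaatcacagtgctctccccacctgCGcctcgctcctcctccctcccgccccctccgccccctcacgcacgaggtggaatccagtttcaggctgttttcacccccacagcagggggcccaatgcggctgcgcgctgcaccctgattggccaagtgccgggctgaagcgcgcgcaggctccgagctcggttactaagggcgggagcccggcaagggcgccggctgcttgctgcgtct
Hnrnpu promoter: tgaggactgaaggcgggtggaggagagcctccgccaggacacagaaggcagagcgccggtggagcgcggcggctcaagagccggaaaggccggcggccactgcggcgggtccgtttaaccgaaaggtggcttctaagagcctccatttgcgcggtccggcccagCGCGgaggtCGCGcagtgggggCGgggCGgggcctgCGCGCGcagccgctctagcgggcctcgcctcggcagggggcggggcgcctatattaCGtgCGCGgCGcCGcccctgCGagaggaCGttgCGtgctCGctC
Nampt, which makes a precursor of NAD, had 4 of the 36 CpGs of its window marked. Those CpGs lay at 79 to 115 bp before the start, and 3 of them had identical values in each line, namely 54.5 points in iPSC 1 and 35.3 in iPSC 2 against 67.2 in gPSC 1 and 66.7 in gPSC 2. The fourth had 32.2, 25.8, 43.9 and 48.9 points in the same order, so both iPSC lines were below both gPSC lines at all 4. Dazl, an RNA-binding protein of germ cells, had 2 of 28 CpGs marked. The one 48 bp after the start had 41.2 and 31.1 points in the iPSC lines against 42.1 and 56.2 in the gPSC lines, and the one 16 bp after the start had 39.1, 30.9, 27.5 and 50.3 points, where the kinds overlapped. Mael, a piRNA pathway protein, had 2 of 24 CpGs marked. The one 160 bp upstream had 55.8 and 28.0 points in the iPSC lines against 54.0 and 58.7 in the gPSC lines, and the one 193 bp upstream had 59.2 and 50.4 against 64.6 and 69.0. In Hnrnpu, an RNA-binding nuclear scaffold protein, 18 of 41 CpGs were marked. There the 2 cytosines of one CpG had opposite signs: at chromosome 1 position 178337769 the values were -44.8, -33.1, -32.8 and -34.7 points in iPSC 1, iPSC 2, gPSC 1 and gPSC 2, and at 178337770 they were 45.8, 33.1, 33.6 and 34.7.

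The shared positions were mostly of one direction. In 36329 of them (93.5%) every line was above the reference (higher positions below), in 2538 (6.53%) every line was below it (lower positions), and 5 had mixed signs. The rule keeps only positions far from the reference in all 4 lines, since every listed difference was at least 25 points with q at most 0.01. A position within 25 points of the reference in 1 line or more is not among them. Positions listed in both iPSC lines and neither gPSC line numbered 5381, and those listed in both gPSC lines and neither iPSC line 11554; an unlisted position can be near the reference or unmeasured. Just inside the threshold, 3418 shared positions (8.79%) had at least 1 line under 30 points. Just outside the rule, 52520 positions were listed in exactly 3 of the 4 lines, with a median absolute value of 51.3 points against 60.9 for the shared positions.

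Averaged over all shared positions, the iPSC lines stood at 53.1 (line 1) and 52.9 (line 2) points and the gPSC lines at 57.8 and 55.8. Both iPSC lines were below both gPSC lines, by 3.80 points on average (iPSC 53.0 ± 0.104, gPSC 56.8 ± 1.37, SD, n = 2 lines each). At higher positions the 4 means were 60.5, 60.1, 65.2 and 63.4 points, an iPSC minus gPSC difference of -4.00 (pooled SD of lines within a kind 0.961). At lower positions they were -53.2, -50.0, -49.4 and -52.1 points, the lines of the kinds overlapped, and the difference of -0.848 was within the pooled SD of 2.13. With 2 lines against 2 the smallest two-sided exact permutation p is 1 in 3, so these means are given with no test. Each line was also centred on its own median, taken apart for higher and for lower positions. The direction then turned, to 1.14 points over all shared positions and 1.20 over higher ones. This arose because the medians of higher positions differed by -5.20 points between the kinds, more than the means did. The medians of lower positions differed by -1.17 points, so genes and places of mixed sign combine 2 shifts.

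**Figure D1:**
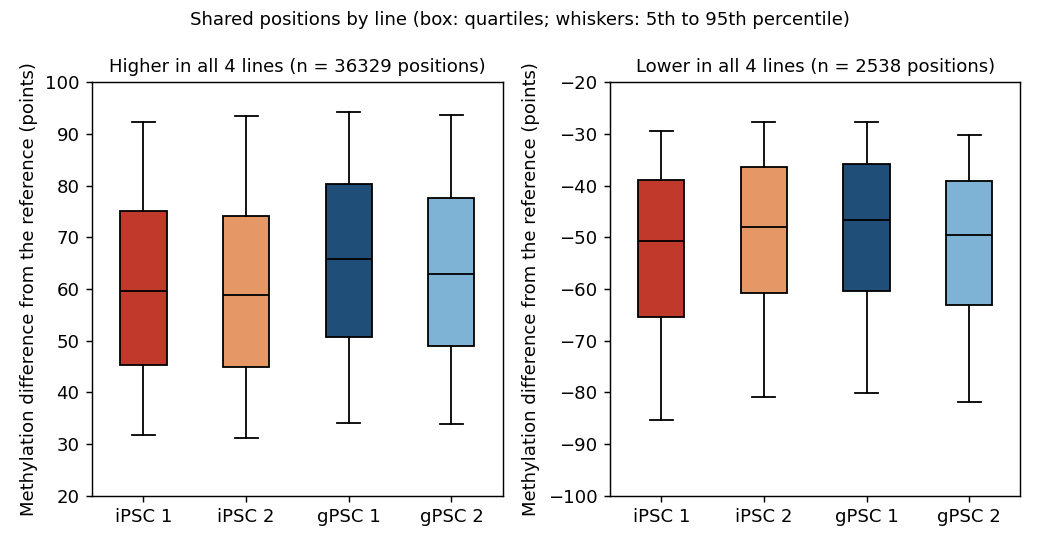
Boxes give the quartiles and whiskers the 5th to 95th percentile of the authors' methylation difference from the reference (vertical axes, points) for each of the 4 lines, at 36329 positions higher in all lines (left) and 2538 lower in all lines (right). At higher positions the medians were 59.6 and 58.8 points in the iPSC lines against 65.8 and 63.0 in the gPSC lines, an order that centring each line on its median removes by construction; at lower positions the lines of the kinds overlap.

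The difference between the kinds was small beside the spread of single positions. The median absolute difference between iPSC 1 and iPSC 2 at one position was 7.80 points, more than in any of the other 5 pairs of lines. It was 6.04 points between the gPSC lines and 6.98 to 7.41 points in the 4 pairs of an iPSC with a gPSC line. Both iPSC lines lay below both gPSC lines at 10542 positions (27.1%) and above both at 3123 (8.03%). A limma fit over all 38872 positions with Benjamini-Hochberg adjustment called 0 (0%) at an adjusted p below 0.05, the smallest being 0.695. At an unadjusted p below 0.05 it gave 2739 positions (7.05%), of which 2416 (6.22%) were lower and 323 (0.831%) higher in the iPSC lines. That count fell without either gPSC line and rose without either iPSC line, and each such fit took its spread from 1 kind alone. Under the centring by line the count was 2028, split into 1010 lower and 1018 higher. With these standard errors the fit had little reach: a lone position with the median standard error of 5.93 points would have needed a difference of 241.8 points to pass, or 31.9 points if 1 in 10 positions had passed, while the largest seen was 64.7. The precision behind the lines also differed. At a difference of 48 to 52 points the authors' p-values had a median −log10 of 5.90 in iPSC 1 and 7.47 in iPSC 2 against 8.97 in gPSC 1 and 6.77 in gPSC 2, and the part of that in the result was not tested.

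Position density went with the size of the difference, a grouping made after the data were seen. Higher positions that were alone in their fixed 1000 bp window (17817) had line means of 60.6 and 61.4 points in iPSC 1 and 2 and 67.5 and 65.3 in gPSC 1 and 2, a difference of -5.35 (pooled SD 1.17). With 2 shared positions in the window the difference was -4.07 points, with 3 to 4 it was -2.40, and with 5 to 9 it was -1.21. With 10 or more (1230 positions) the means were 58.3, 53.1, 56.1 and 54.2 points, the kinds overlapped, and the difference was 0.552 (pooled SD 2.78). In the 2 densest classes iPSC 1 and iPSC 2 were further apart than the kinds were. Leaving out every position within 50 bp of one of opposite sign gave -5.49 points for lone positions and 0.109 for the densest class. Under the centring by line the lone positions stood at -0.155 points and those in windows with 5 or more at 4.43. The centring shifts every class of higher positions by the same amount, so it moves the zero point and could not change their order.

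**Figure D2:**
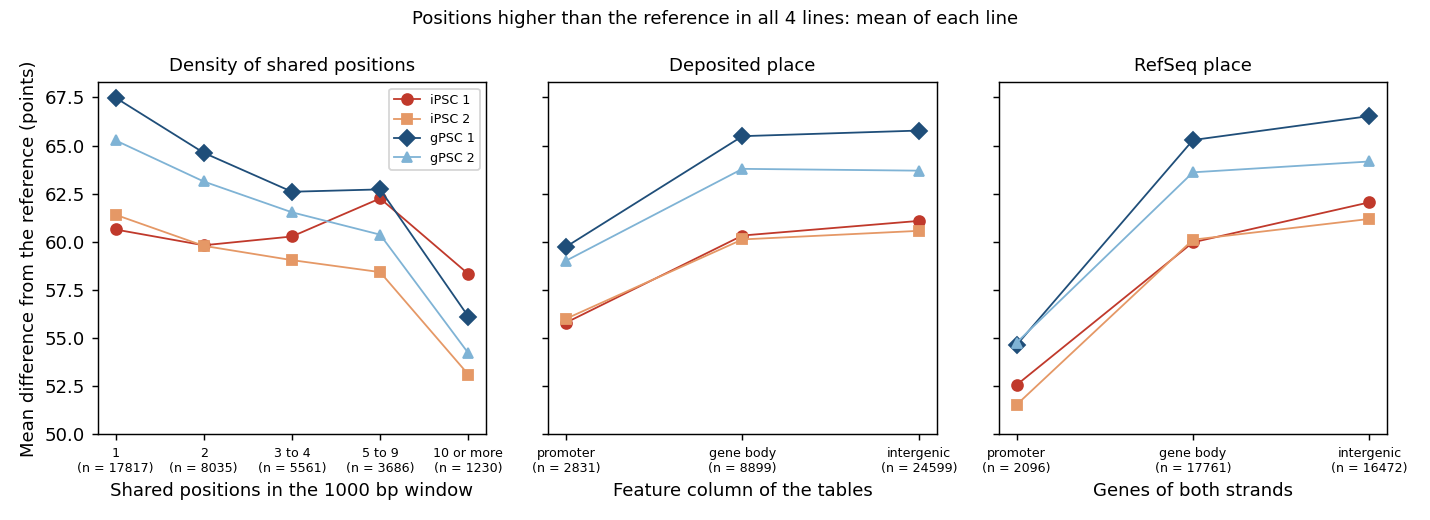
Mean methylation difference from the reference (vertical axis, points) of each line at positions higher in all 4 lines, by the number of shared positions in the 1000 bp window (left), by the place in the deposited feature column (middle) and by place from RefSeq genes of both strands (right); n is the number of positions and the points are single lines. The distance between iPSC and gPSC lines narrows from 5.35 points for lone positions until the lines overlap in dense windows, and the lines of the kinds are apart in all 3 places; centring the lines shifts every class upward, by 5.20 points.

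By place, both iPSC lines were below both gPSC lines in promoters, gene bodies and between genes. In the deposited feature column, gene body positions (9150) had means of 57.1, 57.1, 62.4 and 60.6 points in iPSC 1, iPSC 2, gPSC 1 and gPSC 2, a difference of -4.36 (pooled SD 0.877). Intergenic positions (25631) differed by -3.78 points (pooled SD 1.07). Promoter positions (4091) had means of 22.0, 23.0, 25.8 and 24.5 points and a difference of -2.63 (pooled SD 0.812). Their low level came from a mix of signs, since 2831 promoter positions were higher and 1260 lower than the reference, and at the higher ones alone the difference was -3.48 points. The share of positions with an unadjusted limma p below 0.05 was 5.62% in promoters, 7.89% in gene bodies and 6.97% between genes.

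The deposited place leans to one strand. Among shared positions within 300 bp of a RefSeq start, 83.3% were called promoter at plus-strand genes and 28.1% at minus-strand genes. With genes of both strands from RefSeq, and a promoter taken from 2000 bp before to 500 bp after a start, the difference was -1.69 points in promoters, -4.29 in gene bodies and -3.70 between genes. At higher positions alone these were -2.65, -4.41 and -3.73 points. Among lone higher positions they were -4.82, -5.63 and -5.08 points, with both iPSC lines below both gPSC lines in each place. Lone positions were 811 of 2096 in promoters, 9283 of 17761 in gene bodies and 7723 of 16472 between genes. Under the centring by line the deposited places turned to 1.33 points in promoters, 0.729 in gene bodies and 1.25 between genes.

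Higher positions with a 4-line mean of 30 to 40 points differed by -1.61 points, those of 60 to 70 points by -5.30, and those of 90 to 100 points by -0.589. The outer classes are limited by construction, the first by the listing minimum of 25 points in every line and the last by the scale's limit of 100, so these values are a description only. Both iPSC lines were below both gPSC lines at the higher positions of all 21 chromosomes, with autosomes between -4.83 (chromosome 19) and -3.32 points (chromosome 13). The X chromosome stood at -3.85 points and the Y chromosome, with 118 positions, at -2.84.

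The GSC library, which the rule did not use, was set against the same reference. Of the higher positions, 85.6% were listed as higher in GSC too, and 14.4% were not listed there. The GSC median was 76.7 points over the 31103 listed positions, a set chosen on GSC's own value. Of the lower positions, 70.9% were listed as lower in GSC. The iPSC minus gPSC difference at higher positions was -3.96 points where GSC was listed higher and -4.27 where GSC was not listed, with pooled SDs of 0.954 and 1.26. GSC has 1 library, so its values carry no error.

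Genes were then taken as units, each with the mean of its shared positions from RefSeq gene coordinates, promoter included. Of 9473 genes with a shared position, 1296 had at least 5. Both iPSC lines were below both gPSC lines in 522 of these (40.3%) and above both in 61 (4.71%), and the median difference was -2.80 points. limma with Benjamini-Hochberg adjustment called 0 of 1296 (0%), with a smallest adjusted p of 0.369. An unadjusted p below 0.05 was found for 154 genes (11.9%), with 144 (11.1%) lower and 10 (0.772%) higher in the iPSC lines. That count fell without gPSC 1, gPSC 2 or iPSC 1 and rose without iPSC 2. Without 1 line the spread came from the other kind alone, and the lone line was assumed to vary like it. Under the centring by line 76 genes had such a p-value, 20 lower and 56 higher.

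**Figure D3:**
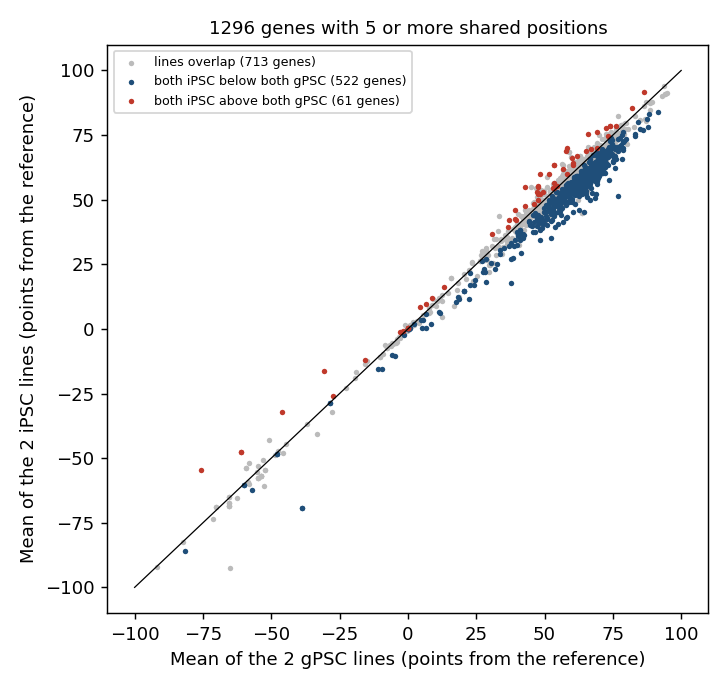
Each point is 1 of 1296 genes with 5 or more shared positions, at the mean of the 2 gPSC lines (horizontal axis, points from the reference) and of the 2 iPSC lines (vertical axis); the line marks equal values. Genes with both iPSC lines below both gPSC lines (522) lie under it, and 61 genes have both iPSC lines above; centring the lines moves the cloud upward.

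The gene with the most negative difference was a shared promoter with lower methylation than the reference. B3galt6 (a galactosyltransferase that builds the linker of proteoglycan sugar chains) and Sdf4 (a calcium-binding Golgi protein) start back to back on chromosome 4 and share the same 8 positions, chr4:155992398-155992432. These averaged -85.4 points in iPSC 1 and -53.4 in iPSC 2 against -35.7 in gPSC 1 and -41.7 in gPSC 2, a difference of -30.7. iPSC 1 stood far from the other 3 lines, and the difference was -14.7 points without it and -46.8 without iPSC 2. Of the 8 positions, 7 had a listed position of opposite sign within 1 bp, so the authors' tables hold both directions at adjacent bases there.

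Elovl5, a fatty acid elongase, followed (chr9:77917365-77984519, 5 positions). Its means were 16.8 and 18.6 points in the iPSC lines against 37.4 and 38.2 in the gPSC lines, a difference of -20.1 (SE 2.14), pulled down in level by 1 position below the reference. Trim39, a ubiquitin ligase (chr17:36258872-36272004, 5 positions), stood at 43.6 and 47.2 points in the iPSC lines against 62.0 and 66.8. Syne2, which links the nucleus to the cytoskeleton (chr12:75818318-76110928), had 9 positions, all lower in the iPSC lines on average, with means of 53.6 and 46.5 against 65.4 and 68.0 points. At 8 of the 9 positions both iPSC lines were below both gPSC lines, the widest gap being 41.7 and 32.5 against 65.7 and 67.9 points.

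The other genes of the lower group were Ptgfrn (a membrane partner of tetraspanins, -17.7 points), Ldoc1 (a gene derived from a retrotransposon, -16.9), Mid1 (a microtubule-associated ubiquitin ligase, -16.6) and Itpr1 (a calcium release channel of the endoplasmic reticulum, -16.6). In Ptgfrn 1 of 5 positions had mixed signs, at -35.4, 30.2, 38.6 and 31.8 points in iPSC 1, iPSC 2, gPSC 1 and gPSC 2, and lay beside one of opposite sign. Without that position the Ptgfrn difference was -12.6 points, and without iPSC 1 it was -11.6. Mid1 spans the pseudoautosomal boundary, so its reads can stem from both sex chromosomes.

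The genes higher in the iPSC lines were led by Senp3 and Tcf20. Senp3, a SUMO protease, had 5 promoter positions (chr11:69681540-69681670) with means of -58.7 and -50.2 points in the iPSC lines against -74.0 and -77.4 in the gPSC lines, a difference of 21.3 (SE 3.88), but 4 of the 5 lay within 1 bp of a listed position of opposite sign. Tcf20, a transcriptional coregulator (chr15:82808447-82988103), had 13 positions with means of 55.8 and 54.2 points in the iPSC lines against 41.1 and 44.6, a difference of 12.2 (SE 1.92). Of these, 9 lie within one window, chr15:82963280-82963372, and had the same or nearly the same value in each line: 64.3 in iPSC 1, 57.1 or 64.5 in iPSC 2, 37.0 or 39.1 in gPSC 1 and 44.4 in gPSC 2. The other 4 were all lower in the iPSC lines on average. Identical values in all 4 lines at 2 positions within 100 bp were uncommon, at 2.67% of the 15632 shared positions with a neighbour that close. Whether such positions were read on the same molecules cannot be told from the tables.

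**Figure D4:**
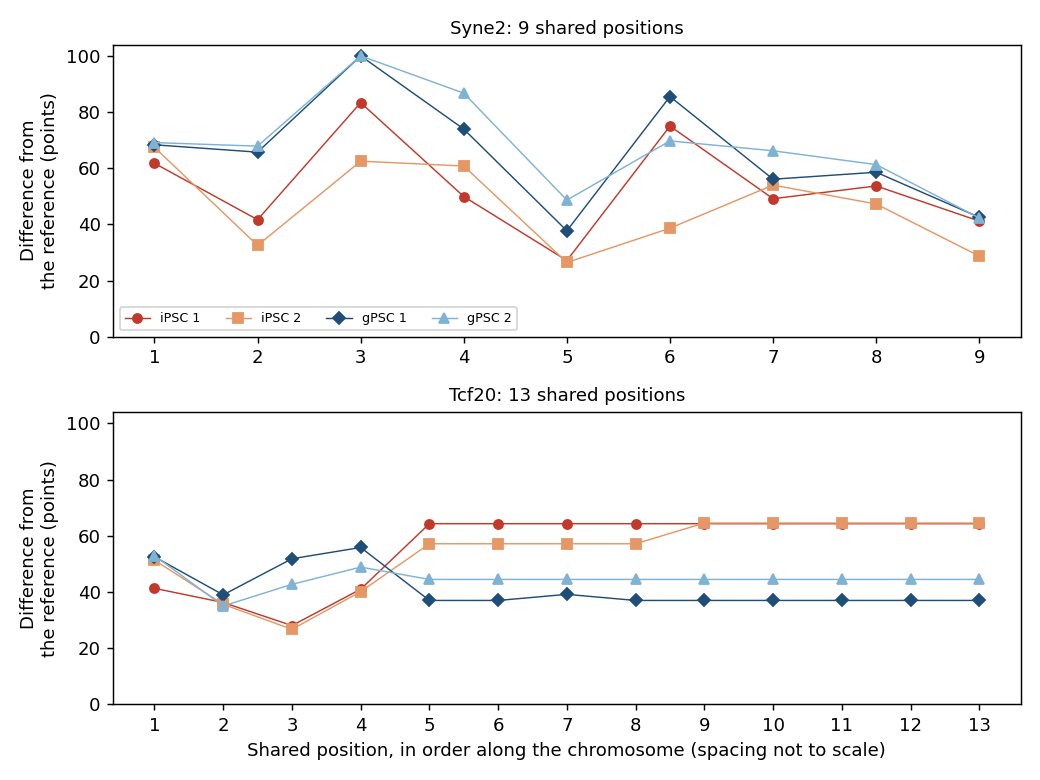
Methylation difference from the reference (vertical axes, points) at each of the 9 shared positions of Syne2 (top) and the 13 of Tcf20 (bottom), in order along the chromosome, for the 4 lines. In Syne2 both iPSC lines are below both gPSC lines at 8 of 9 positions. In Tcf20 the iPSC lines are lower on average at the first 4 positions. At the last 9, which lie in one window (chr15:82963280-82963372) with nearly constant values, both are above.

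Cspg4, the NG2 proteoglycan (chr9:56865104-56899870), had 13 positions with means of 61.3 and 59.0 points in the iPSC lines against 51.0 and 52.4. Its difference was 8.43 (SE 1.66), with 8 positions higher and 5 lower. Both iPSC lines were above both gPSC lines at 4 positions and below both at 2. The gene value leans on 3 positions of one window, chr9:56890145-56890165, which differed by 25.4 points. Hoxd3, a homeobox factor, had 5 body positions with 56.8 and 53.7 points against 45.8 and 49.7, and all 5 were higher on average in the iPSC lines. Without the 2 of them beside a position of opposite sign its difference was 4.50 points in place of 7.50. Olfr687 (an olfactory receptor, 11.7 points), Xkr6 (a membrane protein of the XK family, 11.1), Esm1 (a secreted proteoglycan of endothelium, 9.74), Kcnh3 (a potassium channel, 7.17), Lamp5 (a membrane protein of neurons, 6.96) and Dpp10 (a partner of potassium channels, 6.27) completed this group. Single lines moved 4 of these by over 1.5 times. Olfr687 stood at 5.68 points without iPSC 1 and 17.7 without iPSC 2, and Xkr6 at 6.67 without iPSC 1, 17.6 without gPSC 1 and 4.70 without gPSC 2. Kcnh3 stood at 3.73 points without iPSC 2, and Dpp10 at 3.37 without gPSC 2. The Lamp5 difference was 2.25 points without positions beside an opposite one. The limma adjusted p-values of the 20 genes ran from 0.369 to 0.473, so none passed, and each had been chosen for lines that do not overlap.

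**Figure D5:**
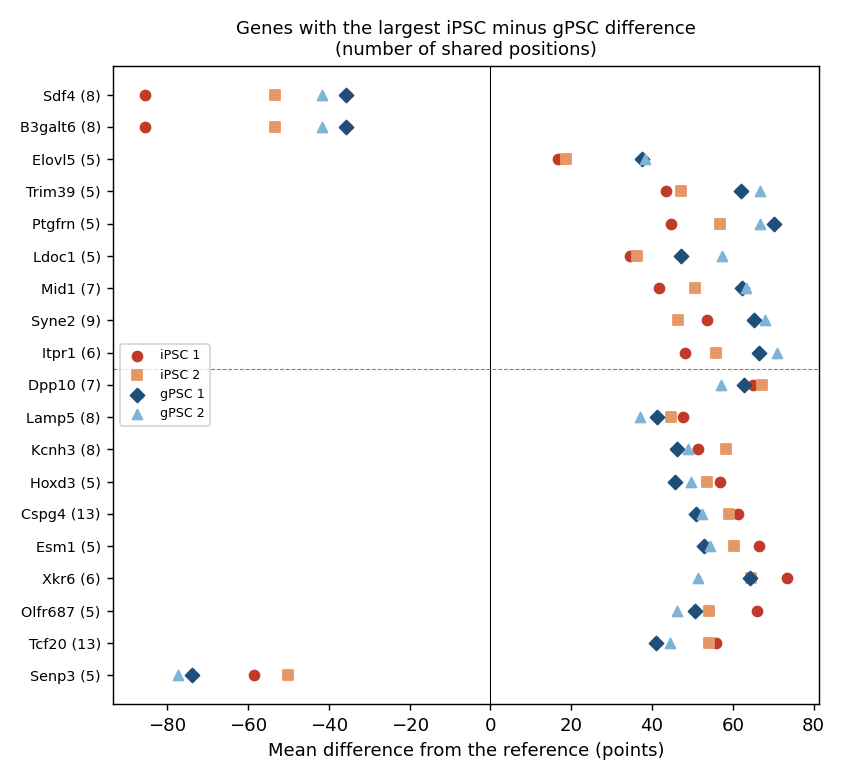
Mean methylation difference from the reference (horizontal axis, points) of each line in the 9 genes with the most negative (top) and the 10 with the most positive (bottom) iPSC minus gPSC difference, with the number of shared positions in brackets. The lines of the kinds do not overlap in any of them, which is how they were chosen; B3galt6 and Sdf4 are the same 8 positions.

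Promoters with at least 3 shared positions numbered 276. The iPSC lines were both below the gPSC lines in 63 (22.8%) and both above in 35 (12.7%). limma called 0 (0%; smallest adjusted p 0.479), and 22 (7.97%) had an unadjusted p below 0.05, 16 (5.8%) lower and 6 (2.17%) higher. Besides those already described, the promoter of Nampt averaged 49.0 and 32.9 points in the iPSC lines against 61.4 and 62.2, a difference of -20.8 (SE 6.80), or -12.8 without iPSC 2. Mab21l4 had 55.1 and 47.0 against 70.8 and 68.8 points. Tmem213, a membrane protein, had 42.9 and 32.9 against 58.7 and 54.4. In the other direction, Ankle2, which acts in rebuilding the nuclear envelope, had 71.8 and 72.0 points in the iPSC lines against 50.8 and 61.5, a difference of 15.7 that was 10.3 without gPSC 1. Esm1 had 61.0 and 58.9 against 51.8 and 49.0 over its 4 promoter positions. Alox5, the enzyme that starts leukotriene synthesis, was below the reference in all lines, at -48.1 and -55.3 points in the iPSC lines against -60.7 and -60.1 in the gPSC lines, a difference of 8.73 that was 5.13 without iPSC 1.

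Windows of 1000 bp do not depend on where genes lie. Of 2509 windows with at least 3 shared positions, both iPSC lines were below both gPSC lines in 596 (23.8%) and above both in 204 (8.13%). limma called 0 (0%; smallest adjusted p 0.887), and 136 (5.42%) had an unadjusted p below 0.05, 110 (4.38%) lower and 26 (1.04%) higher. That count fell without either gPSC line and rose without either iPSC line. Under the centring by line it split into 20 lower and 116 higher. The most negative window lay in the body of Brpf3 (a chromatin reader of the bromodomain family), chr17:28806313-28806370. Its 3 positions averaged 41.0 and 55.6 points in the iPSC lines against 83.9 and 79.6, a difference of -33.5, with GSC at 95.9. A window in Rrp9 (a factor of ribosomal RNA processing), chr9:106483109-106483190, had 57.3 and 49.6 against 80.0 and 84.1 points, with GSC at 98.1. The window with the most positive difference, 25.4 points, was in Cspg4, chr9:56890145-56890165, where 3 positions had 79.0 and 70.0 points in the iPSC lines against 42.7 and 55.6 in the gPSC lines. GSC stood at the scale's limit of 100 there. In these 3 windows GSC was above the 4 pluripotent lines, which did not hold in every window named by the rule. In the Tcf20 window GSC stood at 46.8 points, below iPSC 1 (64.3) and iPSC 2 (61.2) and above gPSC 1 (37.2) and gPSC 2 (44.4).

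Some genes with many positions differed little. Filip1, a partner of filamin, had the most, 50 positions, all above the reference, with means of 67.2 and 58.7 points in the iPSC lines against 65.8 and 57.8, so the lines of a kind were further apart than the kinds. Its difference of 1.13 points was -3.08 without iPSC 1 and -2.85 without gPSC 2. Csmd2, a large membrane protein, had 32 positions with 65.8, 65.8, 67.3 and 66.2 points. Elovl2 (39 positions), Hnrnpu (39) and Dennd1b (32) also had gene means within 2 points of each other, but only because positions above and below the reference cancelled, 20 and 19 in Elovl2, 19 and 20 in Hnrnpu and 18 and 14 in Dennd1b. The 6 genes whose kind means had opposite signs, Gm15420, Rps10, Gm31253, Tab1, Mrpl48 and Rab6a, were of the same sort, with every line within 0.459 points of 0 and equal numbers of positions above and below the reference.

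Neighbours of opposite sign were common among lower positions. A listed position of the other direction within 1 bp was present for 1690 of the 2538 lower positions (66.6%) and for 1486 of the higher ones (4.09%). In the RefSeq promoter windows, where bases could be read, 1142 of 1146 shared positions were a cytosine of a CpG on one strand or the other. Positions with such a neighbour differed by -0.789 points between the kinds (pooled SD 0.853), within the spread of the lines, and those without one by -4.07 (pooled SD 1.04). How opposite values arise on the cytosines of one CpG was not tested.

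Of all 34623 genes 9473 had a shared position, the share to set beside the count of each list. Gene lists were read against these 9473 genes, of which 6959 (73.5%) had a lower and 2473 a higher iPSC mean. Their median was -3.66 points, and both iPSC lines were below both gPSC lines in 34.8%. None of the lists had a gene past the adjusted threshold, and no list was tested as a whole. Differences of single list genes rest on few lines: leaving out 1 line moved 105 of the 119 list genes by over 1.5 times or turned their sign. Without iPSC 2 the germline list had 7 lower and 8 higher genes, and the Hox list 4 and 7. Without iPSC 1 the pluripotency list had 4 lower and 4 higher. The other lists kept more lower than higher genes without any 1 line. Among genes of the methylation machinery, 15 of 26 had a shared position, 14 lower and 1 higher, with a median of -7.09 points, and both iPSC lines were below both gPSC lines in 7 (46.7%). With 1 line left out, 12 to 14 of the 15 were lower. The 3 of them with at least 5 positions had a median of -0.925 points. Dnmt1, the maintenance methyltransferase, had 7 positions, all lower on average in the iPSC lines, with means of 48.6 and 52.0 points against 55.9 and 64.2, a difference of -9.77 (limma adjusted p = 0.402) that was -5.63 without gPSC 2. The mean takes in 6 positions above and 1 below the reference. Tet3, an oxidase of methylcytosine, had 8 positions with 50.7, 53.6, 54.4 and 51.7 points. The 12 positions of Dnmt3b, a de novo methyltransferase, lay in its promoter in pairs of opposite sign and averaged near 0 in each line. Mbd1, a reader of methylated CpGs, had 4 positions and a difference of -6.78 points with overlapping lines.

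Some genes of this list with fewer positions had larger differences, and were picked after their values were seen. Tet1 had 2 body positions with 51.8 and 67.9 points in the iPSC lines against 78.6 and 87.8 at the first, and 43.1 and 49.7 against 68.8 and 81.0 at the second, for a gene difference of -25.9. Tet2 differed by -23.7 points (-9.32 without iPSC 1) over 2 positions, of which 1 had 27.0 and 56.0 against 89.4 and 80.6 and the other overlapped. Uhrf1, the partner of Dnmt1, differed by -14.4 points over 3, and Ehmt1, a histone methyltransferase, by -27.3 at a single position. These are positions inside or near the genes and say nothing of expression, which was not measured.

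Genes of germ cells lay in both directions. In the germline list 15 of 30 had a shared position, 9 lower and 6 higher, with a median of -1.44 points and 3 with both iPSC lines below. Tdrd9, a piRNA pathway helicase, had 46.4 and 41.0 points against 42.6 and 42.7. Hormad1, a protein of meiotic chromosome axes, had 59.9 and 37.2 against 54.3 and 51.1. Spo11, which makes meiotic DNA breaks, differed by 5.47 points, and Dazl by -7.13 over 3 positions, with overlapping lines in both. Of spermatogonial genes 14 of 25 had a shared position, 11 lower and 3 higher (median -3.90). Zbtb16, a factor of spermatogonial self-renewal, had 17 positions with 59.4 and 60.9 against 64.4 and 62.0 points, and Gfra1, the GDNF receptor, had 15 (12 above and 3 below the reference) with 33.6 and 35.3 against 41.0 and 37.5.

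Of pluripotency genes 8 of 30 had a shared position, near the share over all genes, with 6 lower and 2 higher (median -2.35). Esrrb had 32.4 and 36.2 against 41.0 and 31.1 points over 5 positions, 4 above and 1 below the reference, and Stat3 71.2 and 79.7 against 76.3 and 74.9 over 4. Pou5f1 had 25.3 and 19.8 against 30.9 and 25.6 points over 4 positions, 3 above and 1 below the reference, so the mean mixes signs, and 2 of the 4 lay within 1 bp of an opposite one. Reads from the strain's reporter transgene and from the gene itself cannot be told apart there. Of imprinted genes 15 of 39 had one, 12 lower and 3 higher (median -3.02). Peg10, a paternally expressed gene, had 51.0 and 59.2 against 65.5 and 64.9 points over 5 positions. Its difference of -10.1 (limma adjusted p = 0.401) was -5.99 without iPSC 1. Kcnq1 had 23 positions, 15 above and 8 below the reference, and a difference of 0.480 points. Trappc9 had 13 with 55.0 and 54.0 against 57.8 and 58.3.

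Hox genes and lineage factors had medians nearer to 0 than all genes. Hox genes with a shared position numbered 11 of 39, 6 lower and 5 higher (median -0.182), and lineage factors 14 of 30, 8 lower and 6 higher (median -0.383). The Hox median is the value of Hoxd11, whose 3 positions above and 3 below the reference cancel, all 6 beside an opposite one. Other genes of both lists mix signs too, Sox11 among them with 1 position above and 1 below. These medians therefore do not show that the kinds differ less there. Tbx5, a heart factor, had 37.1 and 38.3 against 35.1 and 38.2 points over 9 positions, 8 above and 1 below the reference. Of the WNT, FGF and BMP genes 16 of 30 had a shared position, 11 lower and 5 higher (median -3.85). The 5 of them with at least 5 positions had a median of -0.209 points, 3 lower and 2 higher. Of those 5 Fgfr2 had the lowest difference, with 46.8 and 39.1 against 53.6 and 48.2 points over 9 positions. Fibroblast genes (7 of 17, 6 lower and 1 higher, median -2.41) and testis somatic genes (4 of 14, all lower, median -10.1) mark other cells that cultures could hold. Cyp11a1, a steroid-making enzyme, had 3 positions with 49.7 and 50.9 against 70.2 and 58.5 points. Whether other cells were present was not tested, since the tables give no level for unlisted positions.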

How the data were processed

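Reduced representation bisulfite sequencing gave 6 libraries, of which 5 have 2 tables each, 1 per direction. Reads were processed with tools that include methylKit, Bismark, Bowtie2 and GATK on build GRCm38 (mm10), per the submitters' processing notes. Their versions and settings, any coverage minimum and the reference library were not given in the sources used here. Each table lists positions with a methylation difference in percentage points and a p-value and q-value, all 3 of which the authors deposited. In every table q was at most 0.01 and the absolute difference at least 25 points, so unlisted positions can be unchanged or unmeasured, and positions similar to the reference in any line are left out of what follows. Depth was not analysed here.

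The members, gene lists and rules were chosen with earlier results of these data known. Positions were joined on chromosome and coordinate with Python 3.11.15, pandas 2.3.3 and numpy 2.4.6. limma 3.58.1 in R 4.3.3 compared the 2 iPSC with the 2 gPSC lines, with a constant prior variance for positions and one following the number of positions for genes (at least 5 positions), promoters (at least 3) and 1000 bp windows (at least 3). p-values were adjusted by Benjamini-Hochberg over all features of a level at a threshold of 0.05, and are two-sided. The code was tested on simulated data. The series design calls the lines independent. The p-values measure the spread between lines, with each variance drawn in part from the other features. The labels state no pairing by line number, and none was used in the main fits. Deviations of iPSC 1 and gPSC 1 from their kind means correlated at 0.116 over positions. The median absolute difference was 7.04 points between iPSC 1 and gPSC 1 and 6.98 between iPSC 2 and gPSC 2. It was 7.41 points between iPSC 1 and gPSC 2 and 7.23 between iPSC 2 and gPSC 1. With only 2 pairs, whether the numbers mark a shared origin cannot be told.

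The gene column of the tables holds transcript accessions, so genes were assigned by coordinates from the GRCm38.p6 RefSeq table (34623 genes), in place of the deposited annotation that had been intended. A promoter ran from 2000 bp before to 500 bp after a start. Overlapping genes share positions. Exons and introns were not assigned. The promoter fit, the RefSeq place, and the groups by density, level, chromosome, GSC listing and neighbours were added after the data were seen.

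Genes were named by rule, leaving out predicted and small RNA genes: the 10 largest differences in each direction among genes whose lines do not overlap between kinds and whose sign holds without positions 1 bp from an opposite one; the 5 promoters and 3 windows likewise; the 5 genes with the most positions and a difference under 2 points; up to 4 members of each of 10 lists with the most positions; and genes of opposite sign between kinds, where predicted genes were kept. The list member of lineage factors with the most positions is left out of the text because its symbol is a single letter, and 1 of the 10 genes lower in the iPSC lines and 1 other list member are not reported here.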

Additional observations from a re-analysis of the deposited data

How the results depend on the processing

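With 2 lines of a kind and called positions only, the limma fits could call only large differences. A gene with the median standard error of 2.89 points would have needed 62.7 points as the single call, or 16.8 if 1 in 10 genes passed. The corresponding windows needed 86.8 and 21.8 points. The counts of 0 positions, genes and windows therefore do not show that the kinds are alike. They held at an adjusted p below 0.1, with the other prior variance, with other gene minimums (3 and 10 positions) and window sizes (500 and 2000 bp), and without each line in turn (0 to 0). With the line number as a replicate block, the counts were 0 of 38872 positions, 0 of 1296 genes and 0 of 2509 windows as well, and no call changed.

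Without 1 line, the other line of its kind was assumed to vary like the other kind. Leaving out 1 line at a time, the mean difference ranged from -4.77 to -2.83 points over all shared positions and from -4.94 to -3.06 over higher ones. At lower positions it ranged from -2.47 to 0.777, so its sign rests on single lines: it was 0.777 without iPSC 1 and 0.527 without gPSC 1. The ranges were -3.28 to -1.98 in promoters, -5.24 to -3.48 in gene bodies, -4.84 to -2.73 between genes and -6.46 to -4.25 for lone higher positions. In windows with 5 or more the higher positions ranged from -2.86 to 1.32, against -0.767 with all lines, and turned positive without iPSC 2 (1.32) and without gPSC 1 (0.352). The number of positions and of windows with an unadjusted limma p below 0.05 fell without either gPSC line and rose without either iPSC line. For genes it fell without gPSC 1, gPSC 2 or iPSC 1 and rose without iPSC 2.

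Centring each line on its median, apart for higher and lower positions, removes the overall offset by construction. It gave 1.14 points over all shared positions, 1.20 over higher ones, 1.33 in promoters, 0.729 in gene bodies and 1.25 between genes. Higher positions stood at -0.155 when alone and 4.43 in windows with 5 or more. Unadjusted p-values below 0.05 then split into 1010 lower and 1018 higher positions, 20 and 56 genes and 20 and 116 windows. The mean over windows with at least 3 positions was -2.00, and over all windows with a shared position, an alternative added after seeing the data, -4.58. The promoter mean was -3.60 without positions 1 bp from an opposite one, -3.76 without those within 50 bp, and -1.69 by RefSeq place, also added after seeing the data. The gene body mean was -3.46 among positions at least 50 points from the reference in all lines, where 28 genes had an unadjusted p below 0.05 among the 416 left. Restricting to a p of at most 1e-06 in all 4 lines, added after seeing the data, gave -3.67 over all shared positions. None of the 20 genes named for their difference changed sign in any setting that could give them a value. The rule that named them fixed this in advance for leaving out 1 line and for leaving out positions 1 bp from an opposite one. Under centring, 14 of 20 moved beyond their spread.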
